A study of Mus musculus with 2 samples.

Results

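The genes described here are 9 keratins of basal and stratified epithelia: the type I keratins Krt13, Krt14, Krt15, Krt16 and Krt17 and the type II keratins Krt4, Krt5, Krt6a and Krt6b. They were picked by gene symbol, with earlier results of these data known, and all 9 were found among the 25668 genes of both libraries, which hold 53 keratin genes in all. RNA was sequenced from mouse fallopian tube (oviduct) epithelial organoids in 2 libraries: 1 control library labelled wild type, and 1 library of organoids in which Trp53, the gene of the tumour suppressor p53, was knocked out. Both were grown under the treatment label conditioned medium. The control organoids came from a mouse of a Rosa26 CAG-Cas9-EGFP knock-in line, in which a ubiquitous promoter drives the Cas9 nuclease and a green fluorescent protein. The sources used here do not give the age of the animals, the guide, or whether the knockout organoids descend from a single clone. With 1 library per genotype no test between genotypes was possible, and each difference compares these 2 libraries.

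Keratins are the intermediate filament proteins of epithelial cells. A filament is built from heterodimers of a type I (acidic) and a type II (basic) chain, so a cell needs a partner of each type, and each kind of epithelium is known for its own pairs. Simple epithelia such as the oviduct lining carry Krt8 with Krt18 and Krt19, and Krt7. The basal layer of stratified epithelia carries Krt5 with Krt14, and in many tissues Krt15. Krt6a and Krt6b with Krt16 and Krt17 are inducible keratins of wounded and fast-dividing epidermis and of hair follicles, and Krt4 with Krt13 is the pair of the upper layers of non-cornified mucosa such as oesophagus.

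The relation between the members is visible in the coding sequence around the end of the central rod. The helix-termination region there is among the most conserved parts of keratins. The sequences below are 48 coding bases that start at a conserved motif of this region and run on past that motif. They were taken from the longest coding transcript of each gene in GENCODE M21. They are shown so that the members of each type can be compared base by base. Capitals mark bases that differ from Krt5 in the type II genes.
Krt5: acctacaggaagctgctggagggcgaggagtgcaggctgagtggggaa
Krt6a: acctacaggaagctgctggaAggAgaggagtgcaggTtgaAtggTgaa
Krt6b: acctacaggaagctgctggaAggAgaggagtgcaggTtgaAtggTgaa
Krt4: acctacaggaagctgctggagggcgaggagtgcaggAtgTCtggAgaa
In the type I genes capitals mark bases that differ from Krt14.
Krt14: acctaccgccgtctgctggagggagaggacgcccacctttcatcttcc
Krt17: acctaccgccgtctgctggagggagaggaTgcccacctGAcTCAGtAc
Krt16: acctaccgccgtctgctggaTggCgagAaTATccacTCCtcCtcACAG
Krt13: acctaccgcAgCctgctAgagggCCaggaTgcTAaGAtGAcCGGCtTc
Krt15: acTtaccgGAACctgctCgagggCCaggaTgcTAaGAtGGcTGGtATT
Krt6a and Krt6b are identical here, with 5 bases different from Krt5. Krt14 differs from Krt5 at 22 of the 48 bases, and from Krt17 at 8. Over whole coding sequences, aligned bases were 97.8% identical between Krt6a and Krt6b. The 10 pairs of type I members were 68.8% to 85.5% identical, and the 20 pairs of a type I with a type II member 55.3% to 59.7%.

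The unit is TPM (reads per gene length, set to an equal total per library), so levels can be compared between genes. For all 9 members the values of both libraries gave whole reads at the length of their longest coding transcript, and these recovered reads give 95% counting intervals on each ratio (exact Clopper-Pearson). These intervals, and the Poisson intervals of single levels, hold counting error alone and leave out variation between cultures or animals. Reads lacking molecular identifiers can stem from 1 molecule, so the intervals can be too narrow even for counting error. The summed estimated reads over all genes with a known length were 100099420 in control and 27688213 in knockout organoids, and TPM was above 0 for 16094 and 14066 genes. Trp53 itself was 83.2 TPM in control and 2.42 TPM in knockout organoids. The oviduct epithelial markers Epcam (713 and 697 TPM), Cdh1 (243 and 212 TPM) and Pax8 (44.8 and 46.0 TPM) were present in both libraries. Of the 7 oviduct markers fixed, Ovgp1 (7.44 and 0.192 TPM) and Foxj1 (116 and 52.7 TPM) were at least 2-fold lower with the knockout. After rescaling by the median ratio this held for Ovgp1 alone. As background, 15.3% of the 11228 genes averaging 1 TPM or more were at least 2-fold lower in the values as deposited.

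All 9 keratins were higher in knockout organoids, and 6 of them were close to absent in control organoids. The count of members at least 2-fold higher on the log2(TPM + 1) scale was 9 of 9, beside 8.35% of the 11228 genes whose mean TPM was at least 1. At least 2-fold lower were 0 members, beside 15.3% of all genes. Past 4-fold higher were 8 members and past 4-fold lower 0, beside 2.38% and 5.89% of all genes. Past 16-fold higher were 7 members and past 16-fold lower 0, beside 0.499% and 0.953% of all genes. The median difference over the 9 members was 5.64, and over all genes it was −0.17. Krt5, Krt14, Krt16, Krt17, Krt6a and Krt6b lay between 0.0859 and 0.282 TPM in control organoids and reached a mean TPM of 1 only through the knockout library, so the counts describe these genes and are no support for a general statement. In bulk RNA, more cells of a type and more RNA per cell cannot be told apart.

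**Figure D1:**
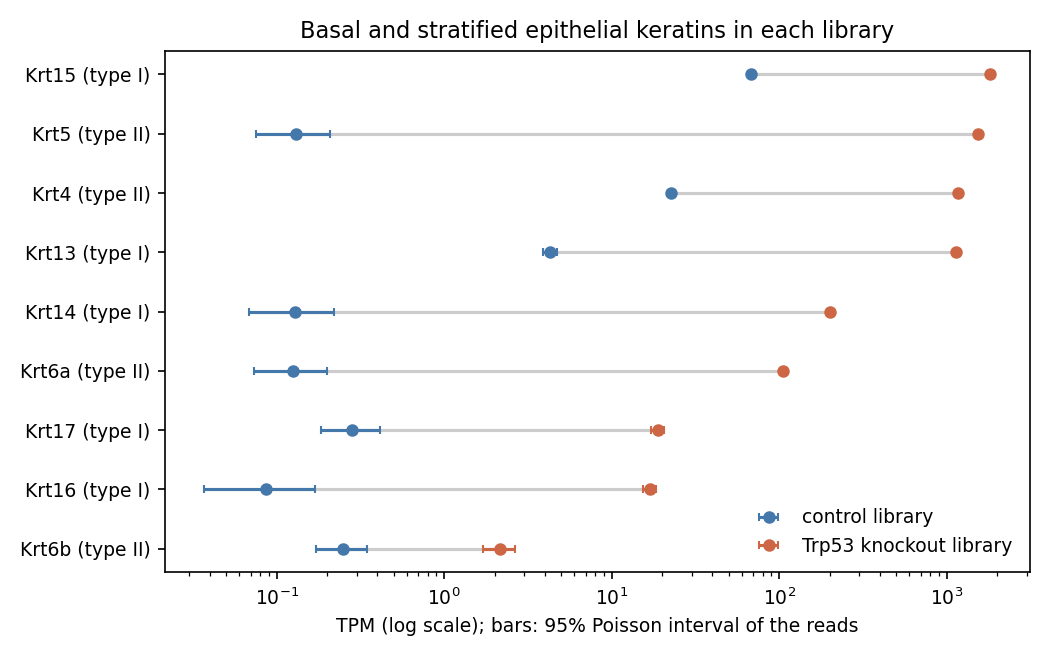
TPM of each keratin (horizontal axis, log scale) in control organoids (blue) and the Trp53 knockout library (orange), with 95% Poisson intervals of the recovered reads. All 9 orange points lie to the right of their blue points, by the shortest distance for Krt6b (0.248 and 2.15 TPM) and the longest for Krt5 (0.130 and 1543 TPM).

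Among the keratins of the basal layer, Krt5, the type II basal keratin, was near 0 in 1 library and among the most abundant transcripts of the other. It had 17 reads (0.130 TPM) in control organoids and 59976 reads (1543 TPM) in knockout organoids. The ratio was 11872, with a counting interval of 7414 to 20382 that is wide because of the 17 control reads. Its difference of 10.42 on the log2(TPM + 1) scale ranked 1 of 11228 genes, and its knockout level exceeded that of 99.1% of the genes above 0 in that library, against 18.0% in control organoids.

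Krt14, the type I partner of Krt5 in basal cells, had 13 reads (0.129 TPM) in control and 6018 reads (200.4 TPM) in knockout organoids. The ratio was 1558 (910 to 2927), and the difference of 7.48 ranked 3. In the control library the level of Krt14 could not be told apart from that of Krt5, whose ratio to Krt14 was 1.01 (0.462 to 2.26). In the knockout library Krt5 stood 7.70 times as high as Krt14 (7.50 to 7.91), so the 2 partners did not reach equal levels.

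Krt15, a type I keratin of basal cells and of stem cells of the hair follicle bulge, was the highest member in both libraries. It had 6903 reads (68.2 TPM) in control organoids, where it exceeded 88.4% of the genes above 0, and 54450 reads (1811 TPM) in knockout organoids. The ratio was 26.5 (25.9 to 27.2), one of the smaller ratios of the 9, and the difference of 4.71 ranked 30. Krt5 was 0.00191 times Krt15 in control and 0.852 times Krt15 (0.842 to 0.862) in knockout organoids. The ratio of Krt5 to Krt15 was thus nearer to 1 in knockout organoids.

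The mucosal pair was present in control organoids and higher in knockout organoids. Krt4, the type II member, had 2866 reads (22.6 TPM) in control and 44286 reads (1174 TPM) in knockout organoids, a ratio of 52.0 (50.1 to 54.0). Krt13, the type I member, had 422 reads (4.29 TPM) in control and 33350 reads (1139.9 TPM) in knockout organoids, a ratio of 266 (242 to 293). Krt13 ranked 2 and Krt4 ranked 17 among all differences.

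The balance of this pair also differed between the libraries. Krt4 stood 5.27 times as high as Krt13 in control organoids (4.75 to 5.85) and 1.03 times as high in knockout organoids (1.02 to 1.04). Of the pairs considered, Krt4 with Krt13 had the ratio closest to 1 in knockout organoids.

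In knockout organoids the inducible keratins were lower in level than the basal and mucosal ones. Krt6a, a type II keratin, had 17 reads (0.125 TPM) in control and 4265 reads (106 TPM) in knockout organoids, a ratio of 844 (527 to 1451). Its type I partner Krt16 had 8 reads (0.0859 TPM) in control and 466 reads (16.8 TPM) in knockout organoids, a ratio of 196 (98.7 to 457). Krt16 had the fewest control reads of the 9 members.

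Krt17, a type I keratin of hair follicles and of injured epithelium, had 26 reads (0.282 TPM) in control and 516 reads (18.8 TPM) in knockout organoids. The ratio was 66.8 (45.1 to 103). Krt16 and Krt17 had overlapping Poisson intervals in knockout organoids, 15.3 to 18.4 TPM and 17.2 to 20.5 TPM, so their order there is not resolved by the counts. Krt6a stood 6.29 times as high as Krt16 in knockout organoids (5.71 to 6.93) and 1.46 times in control organoids, with an interval of 0.597 to 3.91.

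Krt6b, the close paralog of Krt6a, had the smallest difference of the 9. It had 33 reads (0.248 TPM) in control and 85 reads (2.15 TPM) in knockout organoids, a ratio of 8.67 (5.74 to 13.4) and a difference of 1.34 that ranked 569. In the control library Krt6b had more reads than Krt6a, and in knockout organoids Krt6a had 4265 reads against 85. With Krt17, Krt6b had a ratio of 0.881 in the control (0.511 to 1.53) and 0.114 in knockout organoids (0.0898 to 0.144).

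Ordered by level in knockout organoids, the members were Krt15, Krt5, Krt4, Krt13, Krt14, Krt6a, Krt17, Krt16 and Krt6b. The Poisson intervals of neighbours in this order overlapped only for Krt17 and Krt16. In the control library the order was Krt15, Krt4, Krt13, Krt17, Krt6b, Krt5, Krt14, Krt6a and Krt16, and the last 6 lay within overlapping intervals of their neighbours. The order of the low members in control organoids is therefore not resolved.

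**Figure D2:**
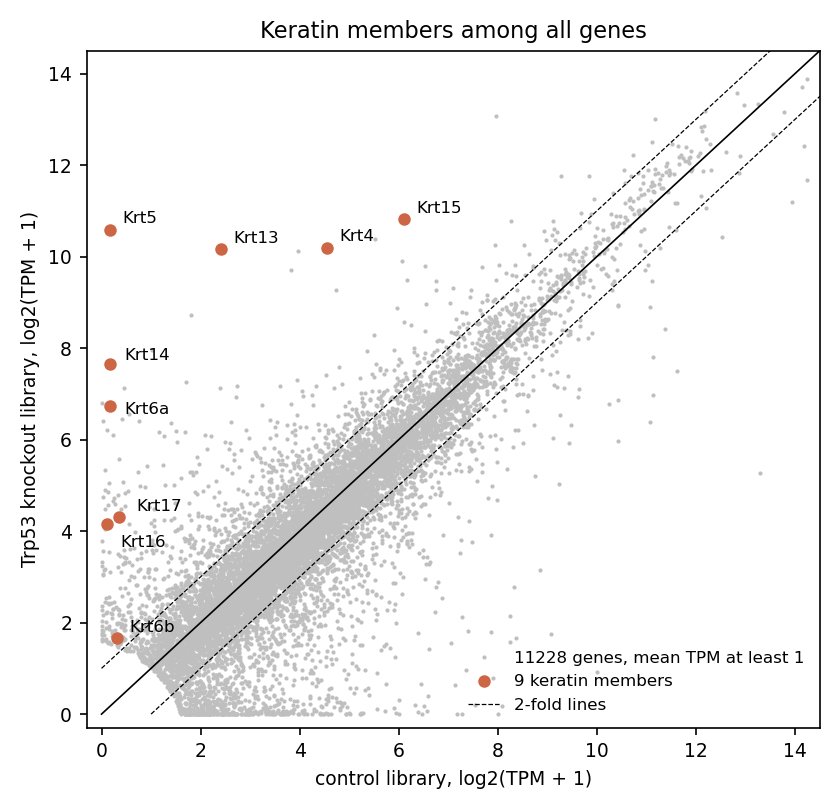
Each of 11228 genes whose mean TPM was at least 1 (grey) and the 9 keratins (orange, named) by log2(TPM + 1) in control organoids (horizontal) and the knockout library (vertical), with the line of equality and dashed 2-fold lines. All 9 keratins lie above the upper 2-fold line, and Krt5, Krt14, Krt6a, Krt16, Krt17 and Krt6b lie at the left edge, at under 1 TPM in control organoids.

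Whether a read can be assigned to a single member bears on these values. For each member, every run of 50 bases (the read length) of its longest coding transcript was looked up in the transcripts of all other genes in GENCODE M21. Both strands were searched, and each run was looked up singly although the reads were paired. Krt6a shared 43.6% of its windows with Krt6b, and Krt6b 44.5% with Krt6a. Counting all other genes, 38.0% of the windows of Krt6a and 49.9% of those of Krt6b occurred in no other gene. Krt14 shared 11.4% of its windows with Krt16 and 3.34% with Krt17, and Krt5 shared 6.98% with Krt6a.

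The remaining members were more distinct. Krt4 and Krt13 shared 0 windows with any gene, Krt15 had 99.3% and Krt17 96.0% of windows of its own, and Krt5 and Krt14 had 87.8% and 85.6%. For Krt16 this share was 62.4%, mainly because 25.2% of its windows occur in Gm11597, which is not among the genes of the files. The handling of reads that match several genes is not given in the sources used here, so the separate values of Krt6a, Krt6b and Krt16 are uncertain. As a sum, Krt6a with Krt6b was 0.373 TPM in control and 108 TPM in knockout organoids. This sum also depends on how reads that match several genes were handled.

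The stretch where the coding sequences of Krt6a and Krt6b differ most shows what tells the 2 genes apart. It spans coding bases 771 to 870, counted from the start codon in each gene, and holds 14 differences, marked by capitals.
Krt6a: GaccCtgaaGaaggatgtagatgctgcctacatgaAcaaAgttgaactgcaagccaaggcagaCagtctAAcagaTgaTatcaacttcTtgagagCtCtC
Krt6b: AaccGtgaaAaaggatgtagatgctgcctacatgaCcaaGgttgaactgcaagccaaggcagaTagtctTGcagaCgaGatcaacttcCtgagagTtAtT
The longest identical run between the coding sequences was 280 bases, which is longer than a 50-base read. A read wholly within such a run fits both genes.

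**Figure D3:**
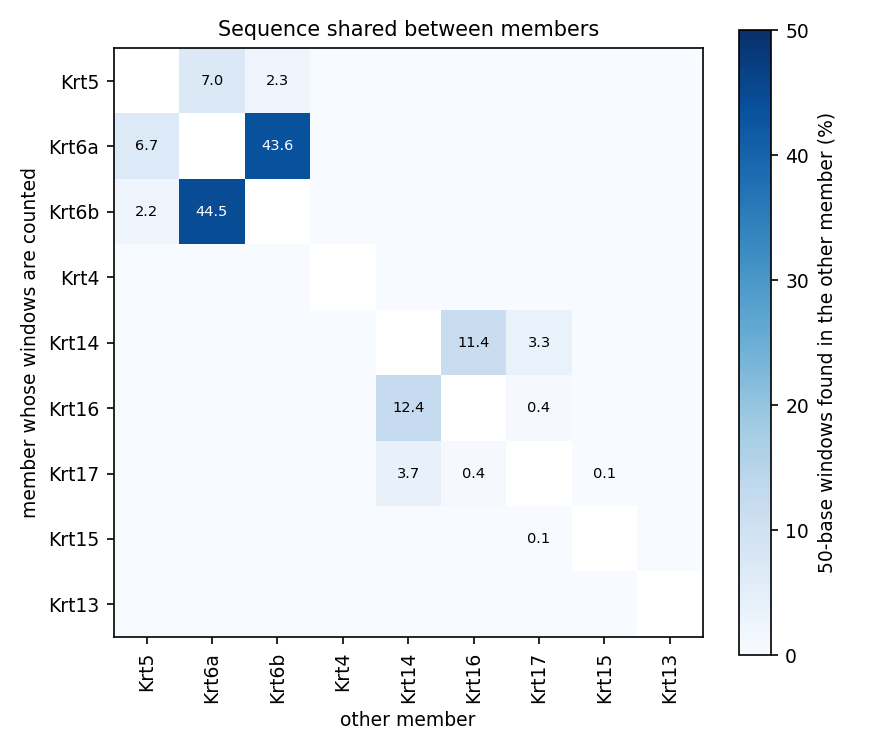
Percent of the 50-base windows of each member (rows) that also occur in another member (columns), colour scale 0 to 50%. Krt6a and Krt6b stand out at 43.6% and 44.5%, Krt14 with Krt16 shares 11.4% and 12.4%, and no window is shared between a type I and a type II member.

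Summed by type, the members of both types were higher in knockout organoids, and the ratio of the sums was nearer to 1 there. The 5 type I members summed to 73.0 TPM in control and 3187 TPM in knockout organoids, a ratio of 43.7. The 4 type II members summed to 23.1 TPM in control and 2825 TPM in knockout organoids, a ratio of 122. The type II sum was 0.316 times the type I sum in control and 0.887 times in knockout organoids.

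The make-up of each sum differed between the libraries. Krt15 made up 93.4% of the type I sum in control organoids and 56.8% in knockout organoids, where Krt13 made up 35.8% and Krt14 6.29%. Krt4 made up 97.8% of the type II sum in control organoids and 41.5% in knockout organoids, where Krt5 made up 54.6%. In the control library, then, Krt15 and Krt4 were nearly the whole of the RNA of the members, other stratified keratins not counted. In knockout organoids Krt15, Krt5, Krt4 and Krt13 each lay between 1139.9 and 1811 TPM. Without the highest member of each type in knockout organoids, Krt15 and Krt5, the ratio was 288 for type I and 55.9 for type II, so the order of the 2 types depends on these 2 genes.

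Together the 9 members held 1.13% of all keratin TPM in control organoids and 31.2% in knockout organoids. The simple epithelial keratins Krt7, Krt8, Krt18 and Krt19 held 98.0% and 68.5%. They summed to 8319 TPM in control and 13215 TPM in knockout organoids. Krt8 was 1984 and 1554 TPM and its partner Krt18 was 3144 and 2317 TPM. Krt7 was 877 and 1167 TPM. These 3 genes were within 2-fold of the control level under each scaling tried that kept them (Krt18 is left out with the 100 highest genes). Krt19, a type I keratin without a tail domain, was 2313 and 8176 TPM, a ratio of 3.53 (3.51 to 3.56).

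Over all keratins of the files, the 28 type I genes summed to 5548 TPM in control and 13700.3 TPM in knockout organoids. The 25 type II genes summed to 2940 and 5595 TPM. The ratio of type II to type I was 0.530 in control and 0.408 in knockout organoids, the latter with Krt19 as the largest single keratin. The Krt8 to Krt18 ratio was 0.631 and 0.670. RNA levels do not give protein levels, and whether the chains pair was not measured.

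**Figure D4:**
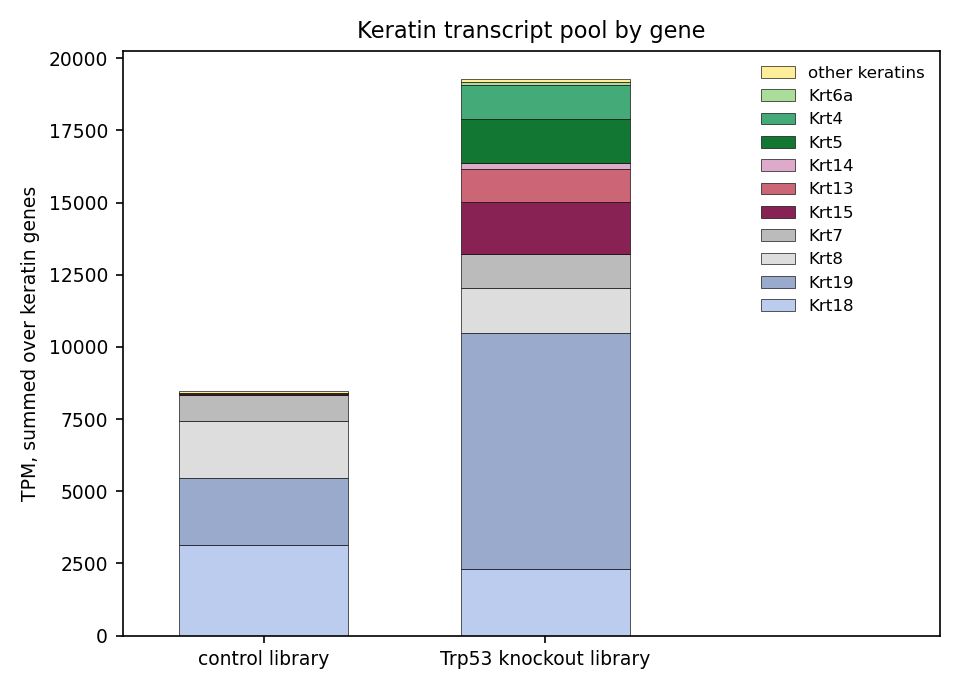
TPM summed over all 53 keratin genes (vertical axis from 0) in control and knockout libraries, stacked by gene. Blue and grey segments are Krt18, Krt19, Krt8 and Krt7, red segments are type I members and green segments type II members; the members take 1.13% of the left bar and 31.2% of the right bar.

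Of the 44 keratin genes outside the 9, 11 were listed at 0 in both libraries and 11 had a mean TPM of at least 1. Of these, 4 were at least 2-fold higher, 2 lower and 5 neither, on the log2(TPM + 1) scale, beside 8.35% higher and 15.3% lower of all genes. Krt83, a type II keratin of hair, was the highest of the 4 in difference, at 0.344 TPM (36 reads) in control and 32.7 TPM (1017 reads) in knockout organoids. It reached the minimum only through the knockout library. Krt12, a keratin known from cornea, was 1.06 and 4.55 TPM, and Krt23, a type I keratin, was 2.37 and 5.78 TPM. Lower were Krt87, a type II hair keratin, at 45.9 and 3.52 TPM, and Krt20, known from urothelium and gut, at 9.77 and 1.88 TPM.

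The keratins and markers of cornified epidermis were low or within 2-fold, apart from Lor. Krt1, the type II suprabasal epidermal keratin, had 11 reads (0.0753 TPM) in control organoids. It was listed at 0 in knockout organoids, with a counting interval of the ratio of 0 to 1.34, which includes no change. Its partner Krt10 was 3.23 and 6.04 TPM, within 2-fold on the log2(TPM + 1) scale except after quantile normalization (a difference of 1.06). Krt80, a type II keratin, was 6.22 and 10.9 TPM. Lor, a cornified envelope protein, was lower (3.54 and 0.350 TPM), Ivl, involucrin, was within 2-fold (15.2 and 18.4 TPM), and Dsg1a was listed at 0 in both libraries.

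Keratin genes lie in 2 clusters, the type I genes on chromosome 11 and the type II genes with Krt18 on chromosome 15. In RefSeq's order along chromosome 11 (assembly GRCm38.p6), Krt13 and Krt15 are followed by Krt19 and Krt9 and then by Krt14, Krt16, Krt17 and Krt42. Krt9 (0 and 0.0219 TPM) and Krt42 (0 and 0.110 TPM) were at 0 in control organoids and had 1 and 3 reads in knockout organoids. On chromosome 15, Krt6b, Krt6a and Krt5 are neighbours, flanked by Krt75 (0.00514 and 0.0865 TPM) and Krt71 (0 in both libraries). Krt19, the neighbour of Krt15, was by contrast the most abundant keratin in knockout organoids.

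The differences were not shared by the chromosomes as a whole. The median difference was −0.18 over the 943 genes of chromosome 11 outside the keratins and −0.19 over the 434 of chromosome 15. At least 2-fold higher were 7.21% and 7.60% of these genes.

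**Figure D5:**
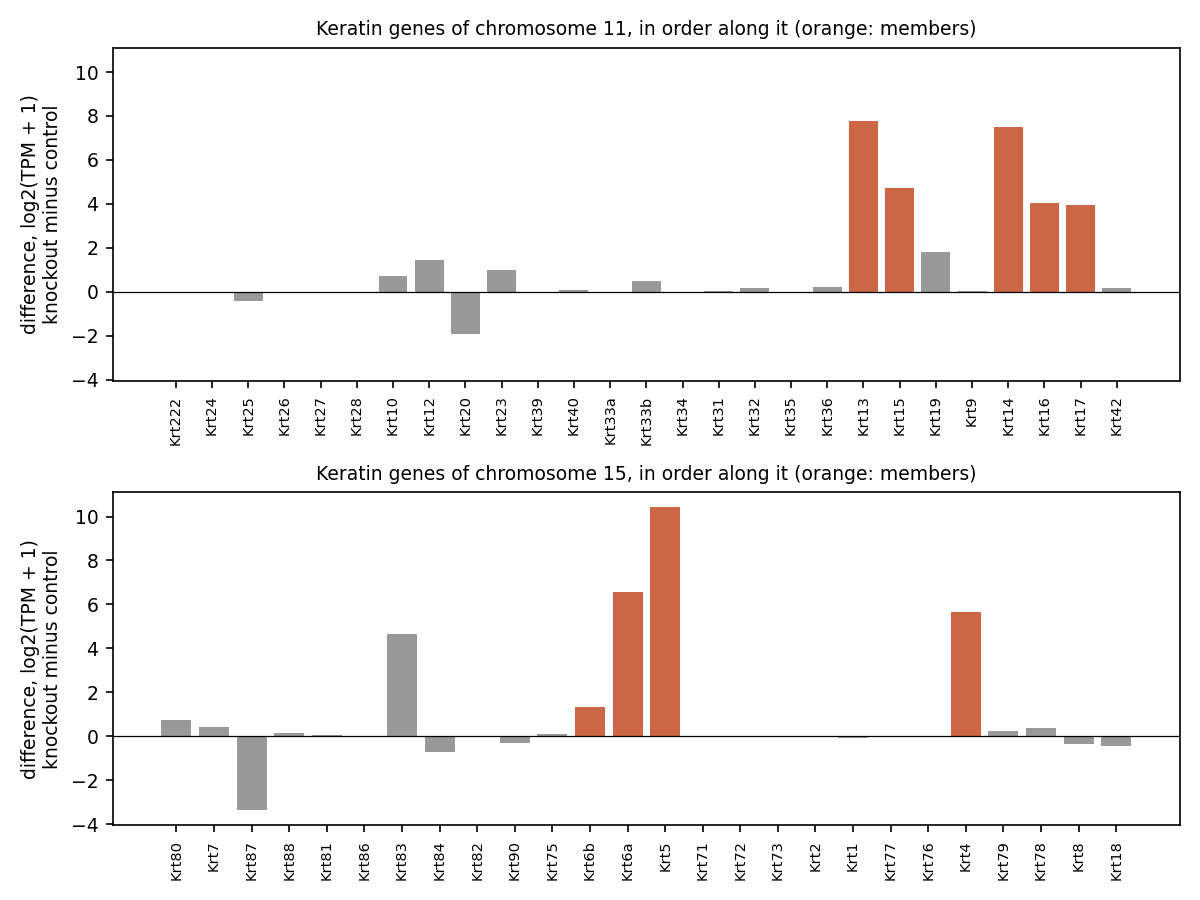
Difference in log2(TPM + 1), knockout minus control, of each keratin gene in its order along chromosome 11 (top) and 15 (bottom). The 9 members are orange; their bars run from 1.34 (Krt6b) to 10.42 (Krt5), while most of the grey bars between and around them lie near 0, with Krt83 at 4.65 and Krt87 at −3.37 as the largest exceptions.

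Sequence upstream of the start was at hand for 3 of the 9 members, and for Krt5 and Krt13 at the outermost start of the gene. The 150 bases before that start are shown for these 2 genes because no other member had such an entry. Both sequences are from RefSeq (build GRCm38.p6, minus strand), at chr15:101712906-101713055 for Krt5 and chr11:100121567-100121716 for Krt13. Capitals mark the run ATAAAA, and in Krt5 also the half-site of the p53 family of transcription factors.
Krt5: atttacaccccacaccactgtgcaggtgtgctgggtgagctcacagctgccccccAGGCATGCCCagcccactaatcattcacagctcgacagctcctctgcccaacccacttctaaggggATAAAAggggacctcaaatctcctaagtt
Krt13: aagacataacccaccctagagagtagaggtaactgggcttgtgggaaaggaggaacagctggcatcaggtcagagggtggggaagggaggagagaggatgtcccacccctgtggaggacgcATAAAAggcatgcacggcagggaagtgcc
In windows from 250 bases before to 50 after the start, searched on both strands, ATAAAA occurred in both genes and in 18.5% of 32851 promoters. The half-site occurred in the window of Krt5 and in 8.36% of promoters. The AP-1 motif TGANTCA occurred in the window of Krt13 and in 7.81% of promoters. The motif TATAAA occurred in neither of these 2 windows and in 13.6% of promoters. Also found in neither window were the AP-2 motif GCCNNNGGC, present in 16.6% of promoters, and the GC box GGGCGG, present in 35.7%. A promoter was counted once for each motif it holds. The motifs were chosen after the sequences had been seen, and a match describes letters, not binding.

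Several transcription factors of basal and stratified epithelium were higher in knockout organoids. Of 19 factors listed, 16 had a mean TPM of at least 1, of which 12 passed 2-fold upward and 0 downward (8.35% and 15.3% of all genes), with a median difference of 1.54. Of these 12, 8 were under 1 TPM in control organoids and reached the minimum only through the knockout library, so the count supports nothing general. The minimum left out Pax9, a paired-box factor, at 1.62 and 0.0780 TPM. Rescaled without mitochondrially encoded genes and the 100 highest genes, 17 were measured, 12 past 2-fold upward and 1 downward. Trp63, a member of the p53 family that is needed for basal cells and known to activate Krt5 and Krt14, was 0.0280 and 15.97 TPM. Pitx1, a homeobox factor, was 0.0190 and 83.4 TPM, and Sox15 had 1 read (0.0195 TPM) in control and 391 reads (25.7 TPM) in knockout organoids. At the other end, Elf3 (374 and 236 TPM), Grhl2 (20.2 and 16.03 TPM) and Ehf (123 and 109 TPM), factors that simple epithelia also express, were within 2-fold in the values as deposited. Sox2 was listed at 0 in both libraries.

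Markers of basal cells other than keratins were higher in part. Of 9 listed, all with a mean TPM of at least 1, 6 were at least 2-fold higher (7 after rescaling by the median ratio or quantiles) and 0 lower (8.35% and 15.3% of all genes), with a median difference of 2.05. Of the 6, 5 were under 1 TPM in control organoids and reached the minimum only through the knockout library. The summed level was 94.7 TPM in control and 293 TPM in knockout organoids. Ngfr, a neurotrophin receptor of basal cells, had 17 reads (0.0829 TPM) and 4454 reads (73.1 TPM). Col17a1, a hemidesmosome collagen, was 0.0571 and 29.0 TPM, and Cdh3, P-cadherin, was 0.383 and 22.4 TPM. The integrins Itga6 (8.38 and 14.9 TPM) and Itgb4 (18.9 and 36.8 TPM), also on this list, were within 2-fold in the values as deposited.

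Proteins that bind or anchor keratin filaments had a smaller median difference than the keratin members (5.64). It was larger than the median of the listed simple epithelial keratins (0.03) and of the other keratins of stratified epithelia and appendages (0.74). Of the 16 proteins listed, 15 were in the files and 14 had a mean TPM of at least 1. Upward, 4 of these passed 2-fold, and downward 1 did (8.35% and 15.3% of all genes). Their median difference was 0.86. Among the 4, Trim29 and Pkp1 stayed below 1 TPM in control organoids, so the knockout library alone brought these 2 to the minimum mean. The median-ratio scale gave 7 higher and quantile normalization 8, with 1 lower in each. Sfn, 14-3-3 sigma, a stratified epithelial protein that binds keratins, was 13.2 and 840 TPM, Trim29 was listed at 0 in control organoids and at 8.45 TPM (409 reads) in knockout organoids, and Pkp1, a plakophilin of stratified desmosomes, was 0.709 and 5.18 TPM. The lower gene was Tchh, trichohyalin, at 5.27 and 1.25 TPM. Pkp2 (27.8 and 20.9 TPM), the plakophilin of simple epithelia, and Tchp (3.597 and 3.49 TPM) were within 2-fold.

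Of 16 intermediate filament genes other than keratins, 4 had a mean TPM of at least 1. Nes, nestin, was 2.56 and 38.2 TPM and the lamin Lmnb1 40.9 and 93.7 TPM. Lmna (71.8 and 101 TPM) and Lmnb2 (8.01 and 14.0 TPM) were within 2-fold. Vim, the mesenchymal filament protein, was 0.379 and 0.127 TPM.

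Markers of other cell types were at or near 0 in the libraries, apart from a few genes. The 7 fibroblast markers summed to 0.0974 TPM in control organoids, and all 7 were listed at 0 in knockout organoids. The 5 endothelial markers summed to 0.0903 and 0.0517 TPM, with 1 and 3 at 0. Of the 6 immune markers, Ptprc was 0.0886 and 0.0110 TPM and Cd3e and Cd79a were at 0 in both libraries, while Csf1r (8.78 and 0.420 TPM) and Cd68 (25.5 and 15.97 TPM) carried the sums of 34.4 and 16.4 TPM, with 2 and 3 markers at 0. Of the 6 smooth muscle and myoepithelial markers, Acta2 was higher (1.07 and 17.8 TPM) and Mylk lower (8.64 and 1.34 TPM), and Cnn1 was at 0 in both, with sums of 10.5 and 19.4 TPM and 1 and 2 markers at 0.

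The other lists bear on epithelia in which these keratins are also found. Of the 4 urothelial markers, Upk2 was higher (0.279 and 3.55 TPM) and Upk1a lower (14.6 and 1.95 TPM), with Upk1b at 0 in control and Upk3a at 0 in knockout organoids, and sums of 14.95 and 5.53 TPM. Of the 4 mesothelial markers, Msln (243 and 232 TPM) and Upk3b (1.27 and 1.41 TPM) were within 2-fold, with sums of 244.5 and 234 TPM and 1 and 0 markers at 0. The 7 markers of cornified epidermis summed to 22.2 and 24.8 TPM, with 1 and 3 at 0. The basal cell markers, Acta2 and Upk2 were higher alongside the keratins, and their part in the result was not tested.

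Genes outside the keratins with the most similar pair of values were sought by the distance in log2(TPM + 1) over the 2 libraries, among genes of 5 or more mean TPM, predicted genes left out. For Krt5 they were Upk3bl (2.49 and 422 TPM, distance 2.48), Tpm2 (1.03 and 249 TPM, distance 2.76) and Sncg (0.375 and 139 TPM, distance 3.47), so no gene came close to it. For Krt13 they were Sfn (distance 1.49), Upk3bl (1.55) and S100a14 (14.7 and 1112 TPM, distance 1.57). A likeness over 2 libraries rests on 1 difference and is a description only.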

How the data were processed

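RNA was measured in 2 libraries, and groups were taken from the genotype labels. Per the labels' protocols, stranded libraries were made from organoid RNA and sequenced as paired 50-base reads. The authors deposited TPM per gene symbol, and the submitters' processing notes name the build GRCm39. The sources used here do not give the aligner, counter, annotation or strand setting. GENCODE M21 and RefSeq GRCm38.p6 belong to an earlier build and were used for lengths, names, order and sequences only.

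Reads per TPM were set from 120 (control) and 331 (knockout) genes below 0.5 TPM whose TPM times longest M21 coding transcript length shared a common value. For a length of 1000 bases this value of 1 read was 0.0168 TPM (control) and 0.0565 TPM (knockout). Of 10222 genes with over 50 reads in both libraries, 30.9% were within 0.02 of whole reads in both, and reads are printed only for genes that were. Estimated totals include genes that were not.

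Differences are log2(TPM + 1), knockout minus control, where the mean TPM was at least 1 (Python 3.11.15, pandas 2.3.3, scipy 1.17.1). The pseudocount of 1 understates the change of low genes. Coding sequences were the longest reading frame of the longest coding transcript. The calls and the read recovery were tested on simulated data. The members, the lists and the tests were chosen with earlier results of these data known. Named are all members, every other keratin with a mean TPM of at least 1, up to 3 genes per list and direction, and the 3 nearest genes to Krt5 and Krt13; others (Krt1, Krt9, Krt42, Krt71, Krt75, Sox2, Itga6, Pax9, Vim, Ptprc and markers at 0 among them) were chosen after their values were seen.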

Additional observations from a re-analysis of the deposited data

How the results depend on the processing

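All 45 member differences recomputed with another pseudocount or scaling stayed above 0. Of these, 20 moved beyond their counting interval. With pseudocounts of 5 and 0.1, Krt16 went from 4.04 to 2.10 and 6.51 and Krt17 from 3.95 to 2.17 and 5.63. With 0.1, Krt13 (8.02) stood below Krt14 (9.78) and Krt6a (8.88). Krt13, Krt15 and Krt4 also moved after rescaling by the median ratio. With a pseudocount of 5, 8 of the 9 members were at least 2-fold higher, Krt6b falling to 0.45, and 8 of 8 were where the mean TPM had to reach 5, which leaves out Krt6b. The median difference over the members was 6.51 with a pseudocount of 0.1, 4.63 with a pseudocount of 5, 5.82 after rescaling by the median ratio, 6.10 at a mean TPM of 5 or more, and 5.97 with Krt6a and Krt6b summed, an alternative added after the data were seen. Rescaling by the median ratio also gave ratios of the sums of 49.4 for type I and 138 for type II; without the highest member of each type they were 288 and 55.9. It moved the median difference of all genes from −0.17 to −0.01, and the counts of all genes from 937 higher and 1715 lower to 1191 and 1461; quantile normalization gave 1292 and 1321. The other alternatives kept these results within their counting intervals or, for counts, within 1.5 times. Members with 8 to 33 control reads have wide ratio intervals, which depth limits. No paired analysis was possible because each group has 1 library.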
